A study of Sus scrofa with 60 samples.

Results

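LTF, NPG4 and PPBP code for proteins that leave the bone marrow or the fetal liver packed into the granules of neutrophils and platelets, and their transcripts were measured here in porcine liver from late gestation to slaughter age. The genes were chosen by symbol, and with knowledge of their levels over the stages and of their covariation among animals, so both are given as descriptions without a test. All probe sets with 1 of these symbols as their single gene symbol were taken, which gave 8 of the 23999 probe sets of the Affymetrix Porcine Genome array (a probe set is a group of short oligonucleotides that reads 1 transcript) and 3 of the 6765 genes with a symbol. LTF and PPBP have 1 probe set each and NPG4 has 6.

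The livers came from 60 German Landrace pigs, all born to or carried by gilts that received the adequate protein (AP) diet in pregnancy, with 1 array per animal. Fetuses of 94 days post conceptionem (dpc, n = 15) were followed by pigs of 1 day post natum (dpn, n = 15), 28 dpn (n = 14) and 188 dpn (n = 16). The offspring of 8 gilts were sampled per stage, and per the study's methods these were sib pairs, a light and a heavy animal at 94 dpc and 1 dpn. Neither litter, sex nor weight is in the labels, so sibs count as separate animals here and the p-values may be too small. The fetuses belonged to an experiment of their own and were taken by Caesarean section, the newborn piglets were killed by injection, and the pigs of 28 and 188 dpn were fasted and bled after electronarcosis. How much blood a liver held at sampling and the stage of the animal cannot be told apart in this design. In whole liver, fewer cells of a type and less RNA per cell cannot be told apart either.

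Levels are log2(intensity + 16), given with the SD (standard deviation) of the animals of a stage. Differences are those of the later minus the earlier stage and carry the SE (standard error) of the limma fit. Period I is 1 dpn minus 94 dpc, period II is 28 dpn minus 1 dpn and period III is 188 dpn minus 28 dpn. The Tag control probe sets, which match no pig transcript, reached a mean of 5.86 in fetuses, 6.29 in newborn piglets, 5.73 at 28 dpn and 5.84 at 188 dpn. A level at or below these values is background here, and a fold against it is a lower limit. Intensities of different probe sets are not comparable as amounts of RNA.

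As background, the fetal liver is a blood-forming organ, and in the pig as in other mammals this role passes to the bone marrow around birth. Neutrophil granule proteins are transcribed while the cell matures: the azurophil granule genes first, then those of the specific granules, and their mRNA is scarce in the mature blood neutrophil, which carries the finished protein. LTF codes for lactoferrin, an iron-binding protein of specific granules that is also secreted into milk and is related to plasma transferrin. NPG4 codes for the precursor of protegrin 4, a cathelicidin, that is, an antimicrobial peptide held inactive behind a conserved prosequence and released by neutrophil elastase. PPBP codes for pro-platelet basic protein, a CXC chemokine precursor that megakaryocytes make and platelets store in alpha granules, and whose cleaved form draws neutrophils.

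All 3 genes were highest in the fetus and lower at each following stage up to 28 dpn. LTF had a lowest, median and highest level of 9.49, 10.20 and 11.06 in fetuses, of 5.80, 8.01 and 9.89 in newborn piglets, of 6.09, 6.83 and 7.46 at 28 dpn and of 5.55, 6.76 and 7.51 at 188 dpn. Its means were 10.25 ± 0.46 in fetuses, 7.68 ± 1.07 in newborn piglets, 6.85 ± 0.45 at 28 dpn and 6.70 ± 0.56 at 188 dpn. A single newborn reached the range of the fetuses, and the pigs of 188 and 28 dpn shared most of their range, with 4 of 16 pigs of 188 dpn and 6 of 14 pigs of 28 dpn above their array's median.

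NPG4 is described by its brightest probe set unless another is named. Its lowest, median and highest levels were 13.10, 14.11 and 14.71 in fetuses, 9.11, 10.79 and 13.18 in newborn piglets, 6.95, 8.74 and 10.12 at 28 dpn and 6.62, 8.36 and 9.90 at 188 dpn. The median intensity before the log was 17614 in fetuses, 1751 in newborn piglets, 412 at 28 dpn and 313 at 188 dpn. In contrast to the other 2 genes, this NPG4 probe set stayed above the Tag controls in all animals of all stages. On it 13 of 14 pigs at 28 dpn and 15 of 16 at 188 dpn still exceeded their array's median. Other NPG4 probe sets did reach background, as given below.

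PPBP had a lowest, median and highest level of 8.31, 9.23 and 10.01 in fetuses, of 4.29, 6.80 and 8.05 in newborn piglets, of 4.18, 5.00 and 6.54 at 28 dpn and of 4.16, 4.94 and 6.31 at 188 dpn. Newborn and fetal ranges did not overlap. After the newborn stage the transcript was at background, since 13 of 14 pigs at 28 dpn and 13 of 16 at 188 dpn lay at or below the highest Tag mean, as did 4 of 15 newborn piglets.

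**Figure D1:**
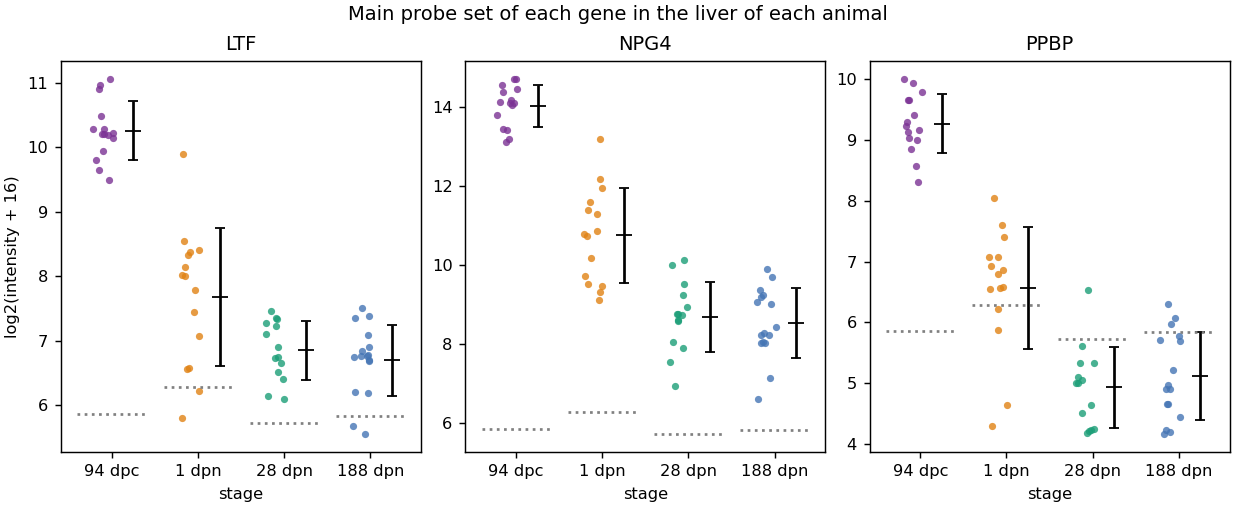
Level of LTF, NPG4 and PPBP, as log2(intensity + 16), in the liver of each animal (points) at 94 dpc, 1, 28 and 188 dpn, with the mean and SD beside the points and the highest Tag control mean as a dotted line. The fetuses lie above all other animals but for 1 newborn in LTF and NPG4, and PPBP is near the dotted line at 28 and 188 dpn with medians of 5.00 and 4.94.

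In period I, LTF was 5.96-fold lower at 1 dpn than at 94 dpc, with means of 7.68 at 1 dpn and 10.25 at 94 dpc and a log2 difference of -2.57 ± 0.28. NPG4 was 9.60-fold lower, with means of 10.75 ± 1.20 at 1 dpn and 14.01 ± 0.53 at 94 dpc (difference -3.26 ± 0.32). PPBP was 6.51-fold lower, with means of 6.57 ± 1.01 at 1 dpn and 9.27 ± 0.49 at 94 dpc (difference -2.70 ± 0.27). Among the 5206 genes tested in this period the 3 differences ranked 12 (NPG4), 20 (PPBP) and 23 (LTF) from the most negative, which is a property that the choice of the genes used. All 8 probe sets passed the filter on low values in period I, and in 2 of them, PPBP and 1 of NPG4, the newborn piglets and fetuses did not overlap. PPBP and the 2 dimmest NPG4 probe sets passed only through the fetuses, where they are high. Of 15 newborn piglets 3 lay above their array's median in PPBP, and 3 and 0 in these NPG4 probe sets. Of all 12771 probe sets tested, 41.1% were called lower and 23.9% higher at 1 dpn, and 5.53% were lower without overlap.

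The overlap of LTF and of the brightest NPG4 probe set rested on 1 animal, newborn 4, with 9.89 for LTF and 13.18 for NPG4. Among the other 14 newborn piglets the highest level was 8.55 for LTF and 12.16 for NPG4, against a lowest fetal level of 9.49 for LTF and 13.10 for NPG4. Without newborn 4 the differences of period I were -2.73 for LTF, -3.44 for NPG4 and -2.78 for PPBP.

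In period II NPG4 was lower by a further 4.16-fold, with means of 8.70 ± 0.89 at 28 dpn and 10.75 ± 1.20 at 1 dpn (difference -2.06 ± 0.37), and 4 of 14 pigs of 28 dpn lay within the range of the newborn piglets. LTF differed by -0.83 ± 0.29, or 1.78-fold, and all 14 pigs of 28 dpn lay within the newborn range. The LTF value was -1.57 with the actin ratio (a measure of RNA integrity) as a covariate and -0.51 after each array's median was subtracted. For PPBP the difference was -1.64 ± 0.30 and stands for a fold of at least 3.12, because the mean at 28 dpn of 4.93 ± 0.67 was background; this probe set did not pass the filter in period II. It was -0.91 with 64 in place of 16 added to the intensity. Of all probe sets tested in period II, 39.0% were called lower and 28.5% higher at 28 dpn.

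In period III none of the 3 brightest probe sets differed by more than the spread between animals. NPG4 differed by -0.16 ± 0.31, with means of 8.53 ± 0.89 at 188 dpn and 8.70 ± 0.89 at 28 dpn. The differences of LTF (-0.16 ± 0.18) and PPBP (0.19 ± 0.24) came from probe sets below the filter at both stages. The background was 24.1% lower and 15.5% higher of the probe sets tested. Over the whole span NPG4 was 44.7-fold lower at 188 dpn than at 94 dpc, LTF 11.8-fold and PPBP at least 17.8-fold, and no pig of 188 dpn reached the range of the fetuses in any of the 3.

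The 6 NPG4 probe sets can be read against each other, but whether all 6 measure 1 locus was not resolved. NPG4 lies in the porcine cathelicidin cluster, and the array's suffixes mark 4 of its probe sets as shared between transcripts of a gene or between similar sequences. RefSeq (Sscrofa11.1) places PR39 next to NPG4, followed by PMAP-23, NPG1 and PMAP-36, and also lists PMAP37 as a synonym of NPG4. Signal from related cathelicidins in the NPG4 probe sets is therefore uncertain, and so is the split between these genes.

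The 5 other NPG4 probe sets differed by -1.88 to -2.93 in period I. The 4 probe sets with shared suffixes followed each other closely among animals, with r between 0.89 and 0.97 in fetuses, 0.94 and 0.99 in newborn piglets, 0.81 and 0.93 at 28 dpn and 0.84 and 0.94 at 188 dpn. Some of these lay at or below the highest Tag mean in 1 or 2 of 16 pigs at 188 dpn. The 2 probe sets with an unshared design were dimmer, with means of 9.45 ± 0.58 and 8.44 ± 0.83 at 94 dpc. The brighter was at or below the highest Tag mean in 4 of 15 newborn piglets, 7 of 14 pigs at 28 dpn and 13 of 16 at 188 dpn. For the dimmer these counts were 6, 5 and 7. The brighter of the 2 had r with the brightest probe set of 0.59, 0.76, 0.71 and 0.48 over the 4 stages. The dimmer one had r of -0.09, 0.49, 0.18 and 0.51, and it also differed least over time. What is said of NPG4 among animals thus rests on the 4 probe sets with shared suffixes.

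**Figure D2:**
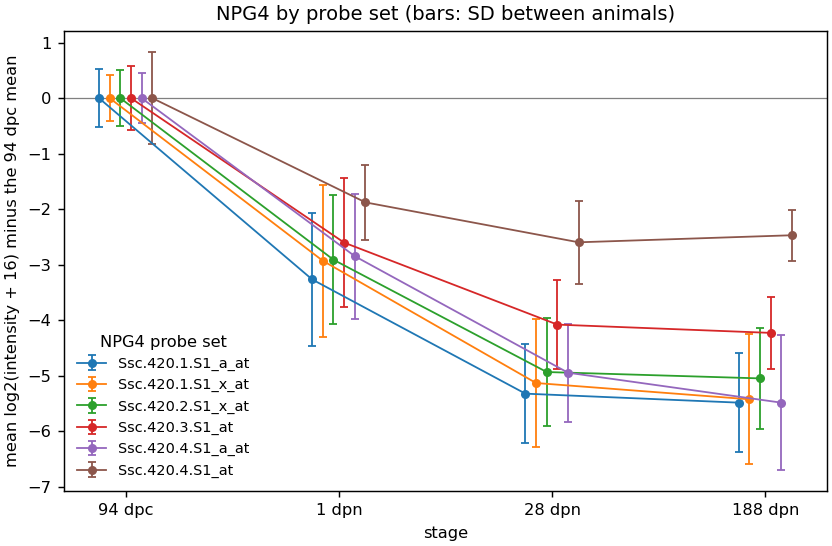
Mean level of each NPG4 probe set relative to its own mean at 94 dpc (log2 scale) at the 4 stages, with the SD between animals as bars. All 6 are lower at 1 dpn, by -1.88 for the dimmest and -3.26 for the brightest on this scale, and 5 of the 6 lie more than 4 units below the fetal mean at 28 and 188 dpn.

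The SD between animals was highest at the newborn stage. The SD at 1 dpn of 1.07 for LTF, 1.20 for NPG4 and 1.01 for PPBP exceeded that of 99.1%, 99.5% and 98.7% of the probe sets that passed the filter at this stage. With 16 added, the highest over the lowest newborn was 17.1-fold for LTF, 16.8-fold for NPG4 and 13.6-fold for PPBP, against 2.97-fold, 3.04-fold and 3.26-fold among fetuses. Without newborn 4 it was 6.71-fold for LTF, 8.31-fold for NPG4 and 13.6-fold for PPBP, and the SD was 0.91, 1.03 and 1.00. NPG4 also differed between older pigs, by 9.03-fold at 28 dpn and 9.69-fold at 188 dpn. Newborn 4 was the highest of 15 in LTF and NPG4 and the second in PPBP. Newborn piglets 3 and 10 were 13th and 14th in both LTF and NPG4, and newborn 8 was last in NPG4 and PPBP. Some animals thus stood at the ends in more than 1 of the genes, and others did not: newborn 14 was last in LTF, 10th in NPG4 and 8th in PPBP, newborn 11 had the next level of PPBP after newborn piglets 12 and 4 but was 10th in LTF and 11th in NPG4, and newborn 7 was 13th in PPBP and 5th in NPG4.

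Across the animals of a stage, r of LTF with the brightest NPG4 probe set was higher in fetuses and newborn piglets than in older pigs. Pearson's r was 0.80 at 94 dpc (rho = 0.71) and 0.88 at 1 dpn (rho = 0.86), then 0.49 at 28 dpn (rho = 0.59) and 0.47 at 188 dpn (rho = 0.32). At 1 dpn the NPG4 probe set had the highest r with LTF of 11839 probe sets, and at 94 dpc it ranked 7 of 11900. Without the 2 animals farthest from the median LTF level, r was 0.75 in fetuses, 0.91 in newborn piglets, 0.52 at 28 dpn and 0.15 at 188 dpn, so that the value at 188 dpn rested on those animals. Without newborn 4, r at 1 dpn was 0.82. The other NPG4 probe sets with shared suffixes had r with LTF between 0.70 and 0.79 in fetuses and between 0.82 and 0.86 in newborn piglets. Of those with an unshared design, the brighter had r of 0.67 in fetuses and 0.57 in newborn piglets, and the dimmer had r of -0.28 in fetuses and 0.28 in newborn piglets.

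The r of PPBP with these neutrophil genes was lower at both stages, a difference that was not tested. LTF and PPBP had r of 0.57 (rho = 0.62) at 94 dpc and 0.57 (rho = 0.65) at 1 dpn, with PPBP at rank 250 and 76 among the probe sets. Without the 2 animals farthest from the median LTF level these r were 0.35 at 94 dpc and 0.67 at 1 dpn. NPG4 and PPBP had r of 0.34 (rho = 0.29) at 94 dpc and 0.66 (rho = 0.72) at 1 dpn, with PPBP at rank 2211 and 32. Without the 2 animals farthest from the median NPG4 level they were 0.00 at 94 dpc and 0.52 at 1 dpn. PPBP was below the filter at 1 dpn. Fetus 5 shows the difference, being first of 15 in NPG4 and 13th in PPBP, and fetus 12 was 13th in NPG4 and second in PPBP. At 28 and 188 dpn, where PPBP is background, its r with LTF was 0.19 and -0.41 and with NPG4 -0.14 and 0.24.

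**Figure D3:**
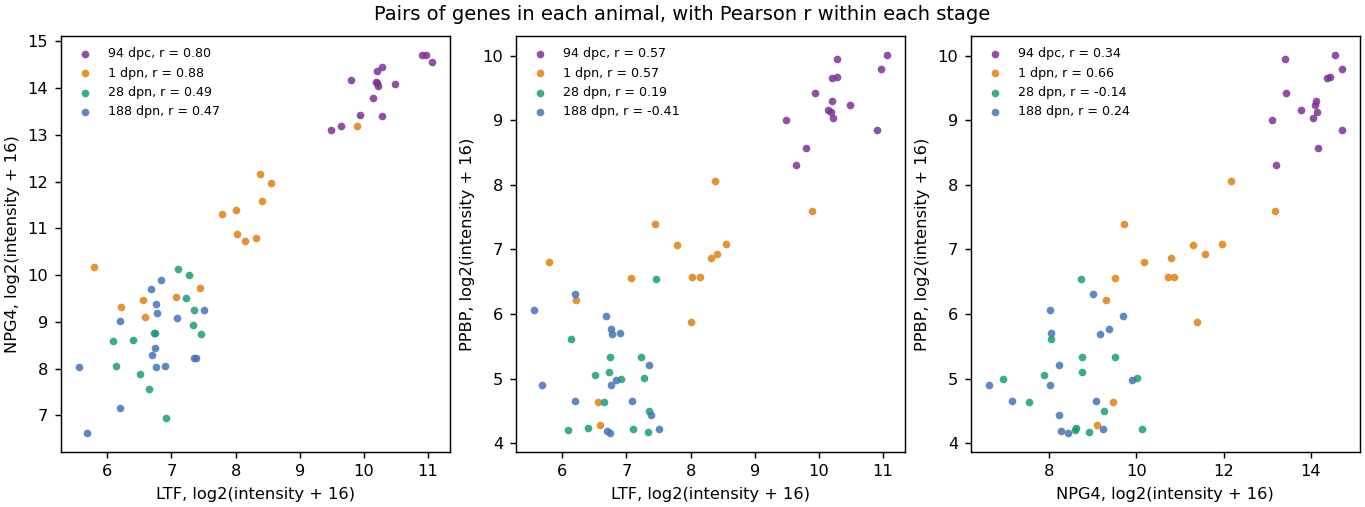
Levels of LTF against NPG4, LTF against PPBP and NPG4 against PPBP (log2(intensity + 16)), 1 point per animal, stages by colour and Pearson's r within each stage in the legend. The points of LTF and NPG4 follow a line within 94 dpc (r = 0.80) and within 1 dpn (r = 0.88), and those of PPBP scatter more.

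The genes most like each of the 3 were sought over all 60 animals after the stage means had been subtracted, by Pearson's r among the 5490 genes that passed the filter, and these r values are a description because they were selected as the highest. For LTF the nearest was NPG4 (r = 0.70), followed by S100A9 (0.69), PR39 (0.65), PGLYRP1 (0.59), S100A8 (0.52) and PRTN3 (0.50). For NPG4 the order was S100A9 (0.79), LTF (0.70), PR39 (0.66), PRTN3 (0.55), S100A8 (0.54) and PGLYRP1 (0.52). Both orders name the same neutrophil products. S100A8 and S100A9 form calprotectin, the most abundant cytosolic protein pair of neutrophils, PR39 is a proline- and arginine-rich cathelicidin of the pig, PGLYRP1 is a granule protein that binds bacterial peptidoglycan and PRTN3 is proteinase 3 of azurophil granules.

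For PPBP the nearest gene was RHCE (r = 0.54), a Rh blood group protein of red cell membranes, followed by the ubiquitin ligases ARIH2 and RNF216 (both 0.48), the splicing factor SF3B2 (0.45), PR39 (0.44) and CDKN2D (0.44), an inhibitor of cell cycle kinases. No other platelet gene was among them. RHCE had r with PPBP of 0.73 in fetuses, 0.67 in newborn piglets, 0.49 at 28 dpn and 0.21 at 188 dpn. PPBP lay at or below the highest Tag mean in 13 of 14 pigs at 28 dpn and 13 of 16 at 188 dpn. The same held for 4 of 15 newborn piglets and 0 of 15 fetuses. The order of genes near PPBP thus includes values at background, and the effect of these on the order was not tested. In fetuses alone the 3 nearest genes were CCZ1, TSPAN33 and MCM3, none of them in the platelet and megakaryocyte list. In fetuses r of PPBP with the platelet and megakaryocyte list, described below, was 0.83.

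Among the 15 fetuses alone, LTF was nearest to S100A9 (r = 0.93), S100A12 (0.90), a further calgranulin, and PRCC (0.82). NPG4 was nearest to PLEK2 (0.86), STAT5B (0.85), a transducer of cytokine receptor signals, and PRTN3 (0.84). PPBP was nearest to CCZ1 (0.81), TSPAN33 (0.79) and MCM3 (0.78), a subunit of the replication helicase. At 1 dpn the r with LTF were 0.81 for S100A9, 0.60 for S100A12 and -0.05 for PRCC. Those with NPG4 were 0.42 for PLEK2, 0.51 for STAT5B and 0.66 for PRTN3. Those with PPBP were -0.09 for CCZ1, 0.08 for TSPAN33 and -0.03 for MCM3. S100A9, not among the 3 nearest to NPG4 in fetuses, had r of 0.91 with NPG4 at 1 dpn.

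**Figure D4:**
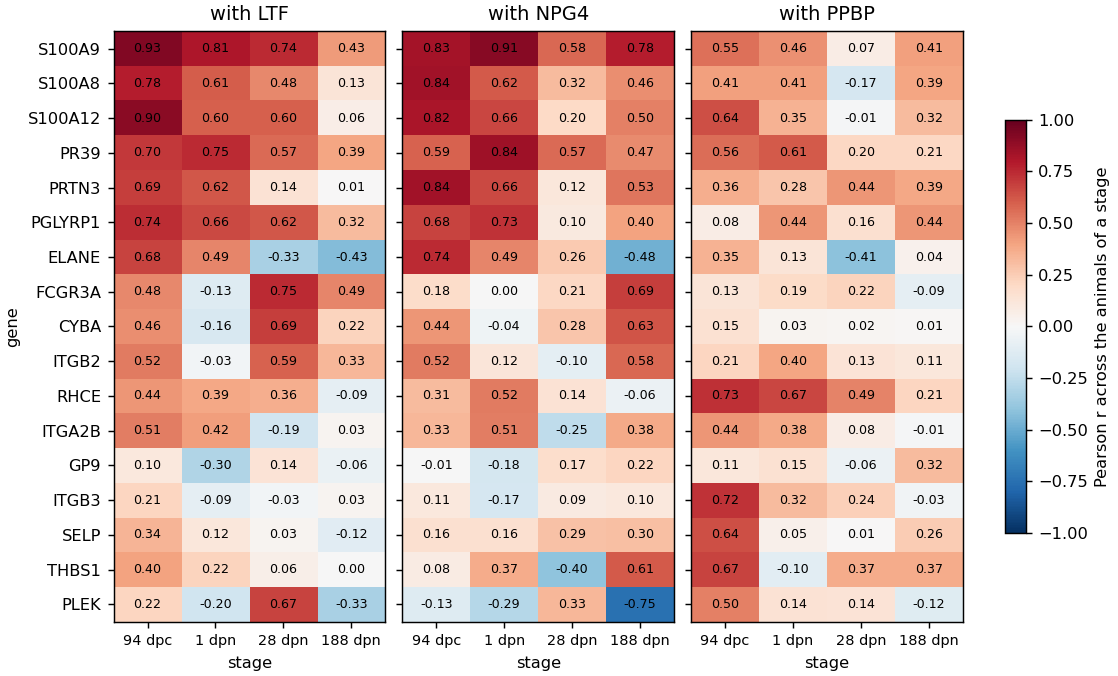
Pearson's r of LTF, NPG4 and PPBP with 17 genes, PGLYRP1 and 16 of the neutrophil, platelet and erythroid lists, across the animals of each stage, with red for positive and blue for negative r; the 17 genes were picked after their values were seen. S100A9, S100A8 and S100A12 are red with LTF and NPG4 at 94 dpc (0.78 to 0.93), and FCGR3A, CYBA and ITGB2 have r with LTF of 0.48, 0.46 and 0.52 at 94 dpc, -0.13, -0.16 and -0.03 at 1 dpn and 0.75, 0.69 and 0.59 at 28 dpn.

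Each of the 3 genes was also set beside the mean standardised level of each gene list in each stage, with LTF, NPG4 and PPBP left out of the lists. Covariation among animals was in the rule that chose these genes, and the lists were written with earlier results known, so the correlations are given with no p. There were 11 lists at 94 dpc and 1 dpn and 12 at 28 and 188 dpn, and a list entered a stage with at least 3 genes above the filter. At each stage the specific and gelatinase granule list level came from 5 of its 10 genes on the array: SLPI, HP, ARG1, CYBA and ITGB2. HP and ARG1 are also products of hepatocytes, and macrophages also express CYBA and ITGB2. An r with this list is therefore not particular to neutrophil granules.

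In fetuses (n = 15) the highest r of LTF was that with the neutrophil cytosol and receptor list (r = 0.92, rho = 0.81), followed by the specific and gelatinase granule list (r = 0.81, rho = 0.82). The median r of LTF over the 11 lists was 0.49. S100A9 and S100A12 of the cytosol list are the genes already named as nearest to LTF. For NPG4 the cytosol and receptor list had r = 0.73 (rho = 0.64), the list of transferrin family and iron handling genes r = 0.72 (rho = 0.83, the highest rho of NPG4 at this stage) and the specific granule list r = 0.69 (rho = 0.74). Without the 2 animals farthest from the median list level, r was 0.86 and 0.74 for LTF and 0.64, 0.74 and 0.91 for NPG4, each in the order given.

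For PPBP in fetuses the highest r was that with the platelet and megakaryocyte list (r = 0.83, rho = 0.75), and it was 0.72 without the 2 farthest animals. Among single genes of that list ITGB3, the beta chain of the platelet fibrinogen receptor, had r with PPBP of 0.72, THBS1 (thrombospondin) 0.67, SELP (P-selectin) 0.64, ITGA2B, the alpha chain of the same receptor, 0.44 and GP9, of the von Willebrand factor receptor, 0.11. With the same list LTF had r = 0.58 and NPG4 r = 0.21.

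At 1 dpn (n = 15) the erythroid list had the highest r with each of the 3 genes. It was 0.77 for NPG4 (rho = 0.81), 0.67 for LTF (rho = 0.68) and 0.69 for PPBP (rho = 0.85), and 0.71, 0.64 and 0.61 without the 2 farthest animals. PPBP did not pass the filter on low values at this stage. The neutrophil cytosol and receptor list came second for LTF (r = 0.45) and NPG4 (r = 0.58), with r of -0.05 and 0.21 without the 2 farthest animals, so that these values rested on those animals.

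At 28 dpn (n = 14) LTF, below the filter there, had r = 0.78 with the cytosol and receptor list (rho = 0.71) and r = 0.55 with the macrophage list (rho = 0.59). The highest r of NPG4 with a list at this stage was 0.31 (cytosol and receptors). At 188 dpn (n = 16) NPG4 had r = 0.81 with the specific and gelatinase granule list (rho = 0.76), 0.73 with the cytosol and receptor list (rho = 0.66) and 0.62 with the macrophage list (rho = 0.65). Without the 2 farthest animals r was 0.56 and 0.69 for LTF and 0.70, 0.45 and 0.33 for NPG4 in these orders. The second highest r of LTF at 28 dpn was with the myeloid transcription factor and growth factor receptor list (r = 0.61, rho = 0.56). Its highest rho at 28 dpn was with the erythroid list (rho = 0.73, r = 0.44). Without the 2 farthest animals these r were 0.44 (myeloid) and 0.81 (erythroid). The r of the 3 genes with the actin ratio lay between -0.41 and 0.33 over the stages and with the array median between -0.28 and 0.58. Without the 2 animals with the most distant actin ratios it was 0.77 for PPBP at 94 dpc and 0.75 for LTF at 28 dpn.

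The other genes of the neutrophil lists changed in both directions. Of 25 neutrophil genes on the array other than LTF and NPG4, 19 were tested in period I, where 8 fell and 6 rose with a median change of -0.09, beside -0.06 over all 5206 genes (35.6% lower and 29.8% higher). In period II 7 of 17 fell and 8 rose (median -0.18, all genes -0.03, with 35.7% lower and 32.2% higher). In period III 7 of 14 fell and 2 rose (median -0.38, all genes -0.06, with 28.3% lower and 17.5% higher). The lists leave out PGLYRP1 and RETN (resistin, made by myeloid cells in humans), which are not in these counts and were added after their values were seen. Because of this choice their changes are given with no p. PGLYRP1, also named above for its r with LTF and NPG4, fell by 1.92 ± 0.30 in period I, with means of 7.00 at 1 dpn and 8.92 at 94 dpc. It was below the filter from 1 dpn on, so it entered period I only through the fetuses, where it is high. Of 15 newborn piglets 3 lay at or below the highest Tag mean in PGLYRP1. RETN fell by 1.31 ± 0.24 in period I and was lower again in period II, with means of 8.65 in fetuses, 7.34 in newborn piglets and 6.25 at 28 dpn.

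The 8 neutrophil genes that fell in period I were PR39, PRTN3, S100A9, S100A8, S100A12, ELANE, SERPINB1 and CYBA. PR39 had a lowest, median and highest level of 5.43, 7.76 and 10.99 at 1 dpn, against 8.79, 10.44 and 12.48 at 94 dpc, and fell by 2.50 ± 0.41 (limma adjusted p = 3.7e-06). PRTN3 fell by 2.30 ± 0.39 to a mean of 6.14 at 1 dpn, which is background, and ELANE, the elastase that frees protegrins, fell by 0.82 ± 0.22. S100A9 fell by 1.21 ± 0.25, S100A8 by 1.03 ± 0.21 and S100A12 by 0.83 ± 0.22. SERPINB1, an inhibitor of the same proteases, and CYBA, a subunit of the oxidase that makes superoxide, fell by 0.43 and 0.29. All of these overlapped between newborn piglets and fetuses.

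The genes that rose in period I were SLPI (1.61 ± 0.42), a protease inhibitor, HP (0.77 ± 0.10), ARG1 (0.65 ± 0.14), CTSC (0.61 ± 0.09), which activates the granule proteases, NCF4 (0.60 ± 0.16) and ALOX5AP (0.27 ± 0.09). HP, the plasma haptoglobin, and ARG1, of the urea cycle, are also products of hepatocytes. BPI, ITGB2, FCGR3A, CD63 and NCF1 did not pass the test.

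In period II the neutrophil genes split. S100A9 fell by 1.64 ± 0.27 at 28 dpn (limma adjusted p = 4.8e-06), PR39 by 1.25 ± 0.42, S100A8 by 0.80 ± 0.23, BPI, which binds endotoxin, by 0.59 ± 0.25, ELANE by 0.54 ± 0.20 and the hepatic genes ARG1 and HP by 1.07 and 0.73. FCGR3A, an Fc receptor, rose by 2.10 ± 0.14 (adjusted p = 4.3e-14), CYBA by 1.94 ± 0.13, ITGB2, the shared chain of the leukocyte integrins, by 1.44 ± 0.16 and ALOX5AP, needed for leukotriene synthesis, by 1.33 ± 0.14. Macrophages also express these last 4 genes. The macrophage list, which shares no gene with the neutrophil lists, had 9 of 14 genes higher and 3 lower in the same period, with a median of 1.19. Of all genes, 32.2% were higher and 35.7% lower. With the actin ratio as a covariate, 2 neutrophil genes fell and 4 rose in period II.

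In period III S100A9 did not pass the test (-0.33 ± 0.26), and PR39, PRTN3, ELANE, S100A8 and S100A12 were below the filter. SLPI fell by 1.77 ± 0.27, ALOX5AP by 0.86 ± 0.15, ITGB2 by 0.71 ± 0.14 and FCGR3A by 0.57 ± 0.13, and ARG1 and HP rose by 1.29 and 0.29. In the macrophage list 10 of 14 genes fell and 1 rose, beside 28.3% lower and 17.5% higher of all genes.

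**Figure D5:**
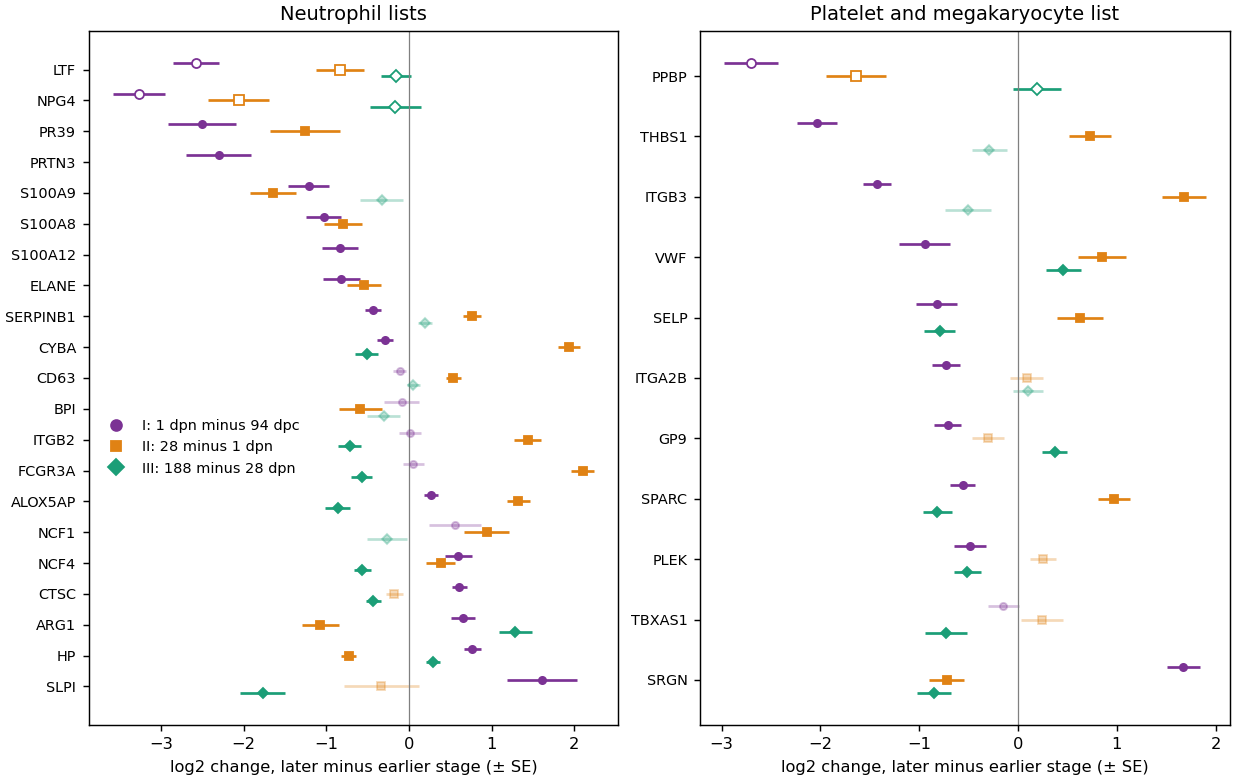
Log2 change, later minus earlier stage (± SE), of the neutrophil genes (left) and the platelet and megakaryocyte genes (right) in period I (circles), II (squares) and III (diamonds), with LTF, NPG4 and PPBP as open symbols at the top and genes that did not pass the test in pale colour. LTF, NPG4 and PR39 lie left of 0 in periods I and II, FCGR3A and CYBA lie right of 0 in period II (2.10 and 1.94), and PPBP is left of 0 in period II where ITGB3, SPARC, VWF and THBS1 are right of it.

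Among the platelet and megakaryocyte genes other than PPBP, most fell across birth and more rose than fell by 28 dpn. In period I 8 of the 10 genes tested fell and 1 rose, with a median of -0.72, beside -0.06 over all genes (35.6% lower and 29.8% higher). The filter was passed by 10 of these genes at 94 dpc and 8 at 1 dpn, so some were tested only through the fetuses. THBS1 fell by 2.03 ± 0.20 with no overlap between newborn piglets and fetuses (limma adjusted p = 2.1e-10), ITGB3 by 1.43 ± 0.14, VWF by 0.94 ± 0.26 and SELP by 0.82 ± 0.21. ITGA2B and GP9, which few cells other than megakaryocytes and platelets express, are named outside the rule of the largest changes after their values were seen. They fell by 0.73 ± 0.14 and 0.71 ± 0.14, to means of 7.78 and 8.14 at 1 dpn, against 8.51 and 8.85 at 94 dpc. SRGN, the proteoglycan of many secretory granules, rose by 1.67 ± 0.17. When a gene was represented by the mean of its probe sets, 5 of 8 genes fell.

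In period II, where PPBP went to background, 5 of 10 platelet genes rose and 1 fell, beside 32.2% higher and 35.7% lower of all genes. The filter was passed by 8 of these genes at 1 dpn and 10 at 28 dpn, so some were tested only through the later stage. ITGB3 rose by 1.68 ± 0.22, SPARC by 0.97 ± 0.16, VWF by 0.85 ± 0.24, THBS1 by 0.73 ± 0.21 and SELP by 0.63 ± 0.23, and SRGN fell by 0.72 ± 0.18. Endothelial or stromal cells express SPARC, VWF, THBS1 and SELP too. ITGA2B changed by 0.09 ± 0.17 and GP9 by -0.30 ± 0.16, neither past the test. The count of genes that rose was 1 with the actin ratio as a covariate and 8 after array medians were subtracted. In period III 5 of 10 fell, among them SRGN by 0.85, SPARC by 0.82, SELP by 0.79 and TBXAS1, thromboxane synthase, by 0.73, and VWF and GP9 rose by 0.46 and 0.37. Of all genes, 28.3% were lower and 17.5% higher in this period.

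Erythroid genes fell in the period in which LTF, NPG4 and PPBP were lower. All 10 erythroid genes tested fell in period I, with a median of -2.25, while 35.6% of all genes were lower. Of these, RHCE, KLF1 and HBE1 were tested only through the fetuses, where they are high, and HBE1 was at background at 1 dpn (mean 6.07). The 7 genes that passed the filter at 1 dpn as well are among those that fell. The summed intensity of the list ranged from 4900 to 9073 at 1 dpn, against 16495 to 63295 at 94 dpc. Of all genes, 35.7% were lower and 32.2% higher in period II, and 28.3% and 17.5% in period III. In period II 2 of 7 erythroid genes fell and 2 rose, and in period III 0 of 7 passed the limma test (0 at an unadjusted p below 0.05 too). Their part in the levels of LTF, NPG4 and PPBP was not tested. In the macrophage list 3 of 13 genes fell and 6 rose in period I, and in that of myeloid transcription factors and growth factor receptors 1 of 4 fell and 3 rose. The shares over all genes in period I were 35.6% lower and 29.8% higher. Of 14 lymphocyte genes only CD74 and CD8B had the signal to be tested, of which CD8B rose, and 10 of the 14 were at background at 1 dpn, against 4 at 94 dpc. The 3 eosinophil, basophil and mast cell genes were not tested in period I for low signal, and their summed intensity had a median of 158 at 1 dpn, with all 3 at background, against 284 at 94 dpc, with 0 at background. The background level itself was higher at 1 dpn (6.29) than at 94 dpc (5.86), so these counts use unlike limits. BLNK, LCK, JCHAIN and GATA2 had means between these limits at 1 dpn (6.18, 6.28, 6.25 and 6.02). ITGAM, OLFM4 and TREM1 of the neutrophil lists were at background at all 4 stages. The summed intensity of the 25 neutrophil genes ranged from 92397 to 155743 at 1 dpn, against 63159 to 104903 at 94 dpc, a sum to which HP contributes most, and that of the platelet list from 8368 to 17352 at 1 dpn, against 11955 to 19237 at 94 dpc.

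Gene families gave a further view. PPBP lies among CXC chemokine genes, with AMCF-II next to it, then CXCL8, and CXCL2 on the other side in the RefSeq order. AMCF-II, a neutrophil attractant of the pig, had means of 10.92 ± 0.47 at 1 dpn and 11.14 ± 0.18 at 94 dpc and did not pass the test in any period (-0.21 ± 0.13 in period I). CXCL8 and CXCL2 had too little signal to be tested. Among fetuses AMCF-II had r = -0.53 with PPBP. In the CXC chemokine list 2 of 5 genes fell and 1 rose in period I, near the shares over all genes (35.6% lower and 29.8% higher).

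PR39, the neighbour of NPG4, had r with NPG4 of 0.59 in fetuses, 0.84 in newborn piglets, 0.57 at 28 dpn and 0.47 at 188 dpn. The neighbours on the other side, MAP4 and DHX30, differed by 1.15 ± 0.26 and -0.04 ± 0.09 in period I, and MAP4 passed the test. LTF lies beside CCRL2, a receptor-like protein that binds chemerin, which fell by 1.67 ± 0.11 in period I and rose by 0.44 ± 0.11 in period II. CCR1, a chemokine receptor of the same stretch, rose by 1.30 ± 0.17 in period I. Of all genes, 35.6% were lower and 29.8% higher in period I. In the list of transferrin family and iron handling genes 1 of 8 fell in period I (TFRC, the transferrin receptor, -2.20) and 3 rose (HMOX1, SLC11A1 and SLC11A2). None of these 4 is a relative of LTF by sequence. TF, the plasma transferrin, which is one, did not pass the test and had means of 15.95 ± 0.22 at 1 dpn and 15.88 ± 0.30 at 94 dpc.

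Across all arrays the tissue label held, since 15 hepatocyte genes passed the filter at each stage and the lowest of their stage means was 12.14. Array-wide measures moved with the stage. The array median was 170 in fetuses, 149 in newborn piglets, 117 at 28 dpn and 111 at 188 dpn, although every array had been scaled to a trimmed mean of about 500. The actin ratio, that is the log2 signal of the 3' actin control over that of the 5' one and a sign of shortened RNA, was 2.29 ± 0.34, 1.76 ± 0.31, 3.54 ± 0.46 and 4.01 ± 0.45 over these stages. In period I, with the actin ratio as a covariate, the differences were -2.37 for LTF, -3.10 for NPG4 and -2.69 for PPBP, and with array medians subtracted -2.40, -3.09 and -2.53.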

How the data were processed

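Liver RNA of 60 animals was hybridised to 1 Affymetrix Porcine Genome array each, and animals were grouped by the stage in the labels. The authors deposited linear intensity values, 1 per probe set and array, with GCOS 1.1.1 in the submitters' processing notes. On each array the mean after trimming 2% at each end lay between 500.1 and 500.2, which shows a common scaling. The study's own mixed model used GCRMA values, which these are not, and its terms for sex, mother and weight are not in the labels. No read depth exists for arrays, and precision is limited by the number of animals.

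Here log2(intensity + 16) was used. Each period was fitted to its 2 stages with limma 3.58.1 in R 4.3.3 (lmFit, eBayes), with Benjamini-Hochberg adjustment over all probe sets of the period at 0.05. A probe set was tested when it lay above the array median in at least 50% of the animals of 1 of the 2 stages. One that passed at 1 stage only was high there, which favours a difference in that direction. The 124 control probe sets were left out. Symbols came from the platform annotation, in which 10069 probe sets have 1 symbol, 198 several and 13732 none; 9961 of the 10069 have their gene ID in RefSeq Sscrofa11.1, used for names and gene order. The probe set with the highest mean over 60 arrays stood for a gene. Neither sequences nor coordinates are given. Correlations with list levels, for which a permutation test had been planned, are given with no p because covariation among animals was used to choose the genes (numpy 2.4.6, scipy 1.17.1, Python 3.11.15).

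Genes and lists were chosen with earlier results of these data known. Named genes are LTF, NPG4 and PPBP, up to 4 called genes per neutrophil or platelet list, period and direction with the largest change, the 6 nearest genes over 60 animals and the 3 nearest over fetuses; others are named for their position or as stated. In simulated data with 200 probe sets changed by 1 on the log2 scale, limma recovered 98%, 88% and 94% in periods I, II and III. Of the probe sets called there, 3.4%, 3.3% and 6.0% were false. The simulation drew independent normal values with the SD of the earlier stage at both stages. The data hold sib pairs and unequal SDs, so these shares may not apply to them. Alternatives were other added constants (4 and 64), quantile normalization, median subtraction, the actin ratio as a covariate, 1 fit over all arrays, filters of 90% and none, the mean of a gene's probe sets, and leaving out animals.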

Additional observations from a re-analysis of the deposited data

How the results depend on the processing

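No paired analysis was possible because the labels give no replicate number that stages share. The differences of LTF, NPG4 and PPBP in periods I to III kept their direction under all alternatives run, and so did LTF and NPG4 among animals at all stages. Over the alternatives of period I the difference ranged from -2.73 to -2.27 for LTF, from -3.44 to -3.09 for NPG4 and from -2.97 to -2.15 for PPBP, of which leaving out 1 animal gave -2.73 to -2.44, -3.44 to -3.15 and -2.81 to -2.54. Leaving out newborn 4 was added after the data were seen.

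Counts of list genes depended on the setting more than the 3 genes did, and the cause was not tested. With the actin ratio as a covariate, neutrophil genes lower and higher in period II numbered 2 and 4 (7 and 8 without it), those higher in period III 1 (2), and platelet genes lower and higher in period II 0 and 1 (1 and 5) and higher in period III 1 (2). After array medians were subtracted, 4 neutrophil genes were lower and 8 platelet genes higher in period II. The 90% filter left 13 neutrophil genes to test in periods I and II, of which 5 and 3 were lower (8 and 7). With the mean of a gene's probe sets, 5 platelet genes were lower in period I (8), 3 higher in period II (5) and 1 higher in period III. In 1 fit over all arrays 2 platelet genes were lower in period II and 1 was higher in period III, and 1 was higher there with no filter or without the least correlated arrays.

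The highest r of a gene with a list, in stages where the gene passed the filter, kept its sign under all alternatives. Over 7 alternatives r of LTF with the cytosol and receptor list in fetuses lay between 0.86 and 0.93, r of PPBP with the platelet list in fetuses between 0.72 and 0.83, and r of NPG4 with the specific granule list at 188 dpn between 0.68 and 0.81.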
